A study of Homo sapiens with 11 samples.

Results

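CUL4A islands that carry CDT2 and lie outside replication origins numbered 3300 of the 55717 CUL4A islands on chromosomes 1 to 22, or 5.92%, and 56715 CUL4A islands were listed in all. They were chosen by position in 3 lists from U2OS cells, a human osteosarcoma line. An island was taken when 1 bp or more of it lay in a CDT2 peak and none of it in a region of nascent strand enrichment, here called an origin. They are named below as CDT2 islands outside origins.

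CUL4A is a cullin, the scaffold of the ubiquitin ligase CRL4, which reaches its substrates through exchangeable receptors called DCAFs. CDT2 (gene DTL) is the DCAF that recognizes proteins bound to PCNA on chromatin, and CRL4 with CDT2 marks the licensing factor CDT1, the histone methyltransferase SET8 and the cell cycle inhibitor p21 for degradation when DNA is copied. SKP2 is the substrate receptor of another ubiquitin ligase, SCF, which also acts on CDT1 and on other cell cycle regulators. H3K9me3 is a histone mark of heterochromatin and H3K4me3 one of active promoters. Nascent strands are the short new DNA strands made where replication starts, and regions rich in them mark replication origins.

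The study asked how RepID, a DCAF that binds a group of origins, brings CUL4 to chromatin. Peaks were listed for 8 samples, each the only sample of its kind. U2OS RepID WT cells gave ChIP-seq (sequencing of DNA bound by a protein) for CUL4A, H3K4me3 and H3K9me3, and nascent strands. HCT116 cells, a colon carcinoma line, gave SKP2 ChIP-seq from RepID WT cells and from RepID KO cells (CRISPR-Cas9 knockout), and nascent strands from a RepID KO clone. The cultures were neither synchronized nor treated. For CDT2 the sample label names U2OS, and the design text names a stable U2OS line overexpressing FLAG-tagged full-length RepID. The study's own text places its CDT2 ChIP-seq in U2OS WT cells, and which cells were used could not be settled. The 3 input samples, of which that of the FLAG-RepID line also carries a label of HCT116, had no list, and input signal at the islands was not analysed here. RepID KO was a single clone in the nascent strand sample, and KO and cell line cannot be told apart in any comparison of its origins with those of U2OS. Sequencing depth is unknown, because the lists give scores and no read totals.

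The values that chose the islands are given first, as a description. Their median width was 1400 bp (quartiles 800 to 2200 bp, range 200 to 66600 bp), and together they covered 5960000 bp. CUL4A islands with CDT2 at origins (n = 11145) had a median width of 2600 bp, and islands without CDT2 outside origins (n = 13545) one of 1400 bp. The median CUL4A score was 48 in CDT2 islands outside origins, 107 in CDT2 islands at origins and 39 in islands without CDT2 outside origins. Per kb of island the same medians were 40.0, 42.0 and 31.0, so that the CDT2 islands inside and outside origins lay close together once width was taken into account. The median score of the strongest CDT2 peak in each island was 28.46 outside origins (quartiles 23.7 to 40.8) and 32.19 at origins.

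CDT2 usually occupied part of the island rather than all of it. The CDT2 peaks covered a median of 42.3% of the island, 195 islands lay wholly within CDT2, and the centre of the strongest CDT2 peak was a median of 237.5 bp from the centre of the island. A single CDT2 peak was present in 3130 islands and 2 or more in 170, with a maximum of 21. The islands held 3570 of the 27704 CDT2 peaks on these chromosomes (12.89%). They made up 22.85% of all CUL4A islands with CDT2, whereas islands outside origins made up 32.82% of the CUL4A islands without CDT2.

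The nearest origin was a median of 6200 bp away (quartiles 2600 to 15000 bp). Of the 3300 islands, 335 were within 1 kb of an origin, 202 were more than 50 kb from one and 76 more than 100 kb. At the edge of the rule, 11 islands touched an origin without sharing a base, among them one on chromosome 11 from 1913001 to 1916200 and one on chromosome 17 from 71947401 to 71951200. On the other side of the rule, 87 islands with CDT2 shared only 200 bp with an origin, such as the one on chromosome 2 from 3047201 to 3050600. Only 2 islands shared less than 50 bp with CDT2, at 8 and 13 bp, both 200 bp wide. The island without CDT2 nearest to inclusion lay on chromosome 7 from 71496001 to 71500000, 23 bp from a CDT2 peak. Positions are 1-based on hg19, and no gene was assigned because no annotation of that build was used here.

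Of the CDT2 islands outside origins, 50.8% shared a base with an H3K9me3 peak (1677 of 3300, Wilson 95% interval 49.1 to 52.5%), against 33.2% of all CUL4A islands on chromosomes 1 to 22. H3K4me3 was met by 7.76% (256 islands, 6.89 to 8.72%), against 16.2% of all CUL4A islands. SKP2 of HCT116 WT cells was met by 12.4% (410 islands, 11.3 to 13.6%; all CUL4A islands 7.45%), and SKP2 of RepID KO cells by 10.5% (346 islands, 9.49 to 11.6%; all CUL4A islands 8.01%). Origins of HCT116 RepID KO cells were met by 39.7% (1309 islands, 38.0 to 41.3%), against 67.0% of all CUL4A islands. The islands thus lay above the level of all CUL4A islands for H3K9me3 and both SKP2 lists, and below it for H3K4me3 and the RepID KO origins. None of these 5 lists entered the rule. All intervals cover counting error only: with 1 sample per list there is no replicate error, neighbouring islands are not independent, and no test between conditions was possible.

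**Figure D1:**
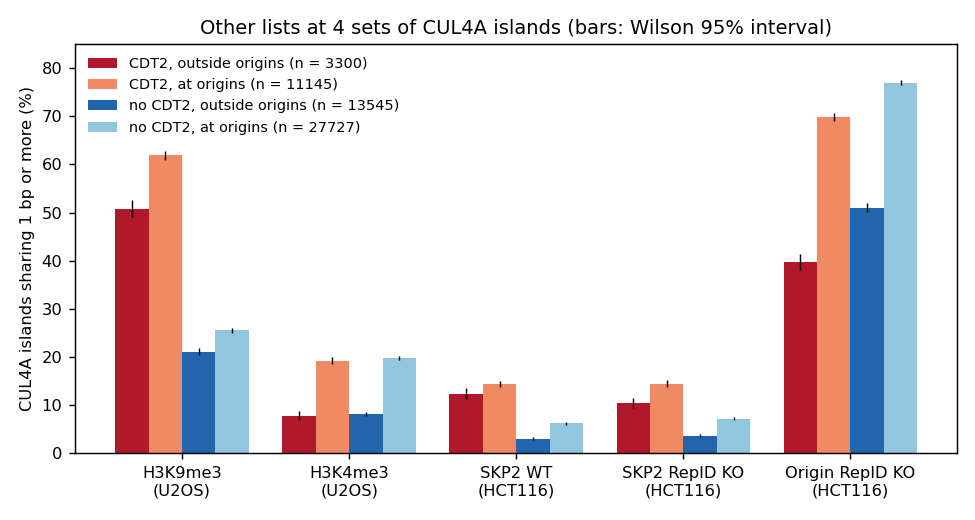
Share of CUL4A islands (%) that share 1 bp or more with each of 5 other lists, for 4 sets of islands split by CDT2 and by U2OS origins; error bars are Wilson 95% intervals. The dark red bars, CDT2 islands outside origins, stand at 50.8% for H3K9me3, above the 21.1% of islands without CDT2 outside origins, and at 7.76% for H3K4me3, below the 19.3% of CDT2 islands at origins.

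The H3K9me3 share differed more between islands with and without CDT2 than between islands outside and at origins. Among islands outside origins, 21.1% of those without CDT2 met H3K9me3, which was 29.7 percentage points below the islands with CDT2 (Newcombe 95% interval of the difference 27.8 to 31.5). The difference was in the same direction on all 22 chromosomes, from 23.0 to 37.7 percentage points. CDT2 islands at origins met H3K9me3 in 61.9%, so the islands outside origins were 11.1 percentage points lower (interval of the difference -13.0 to -9.16), and they were lower on 21 of 22 chromosomes. That difference changed sign when each island was replaced by 1 kb around its centre, with 42.8% outside origins and 40.3% at origins, a difference of 2.52. Within 250 bp of the centre of the strongest CDT2 peak, a window placed alike in both sets, H3K9me3 was present in 47.3% of islands outside origins and 54.9% of islands at origins.

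**Figure D2:**
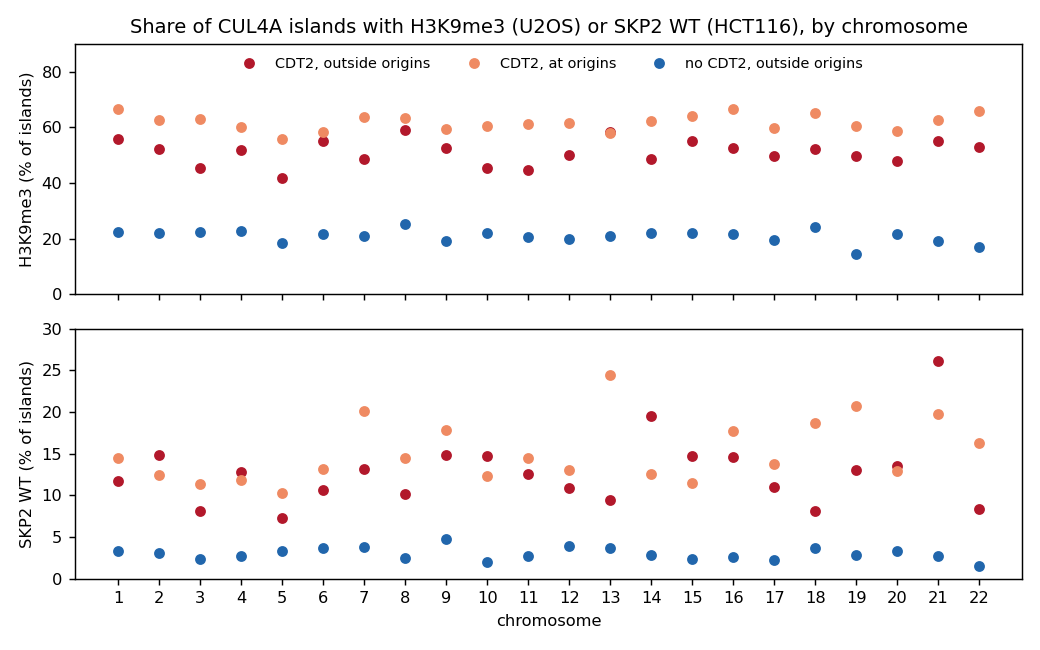
Share of islands (%) with H3K9me3 of U2OS (top) and SKP2 of HCT116 WT (bottom) on each of chromosomes 1 to 22, 1 point per set. The dark red points, CDT2 islands outside origins, lie above the blue points, islands without CDT2 outside origins, on all 22 chromosomes in both panels, with H3K9me3 shares between 41.8% and 58.9%.

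For H3K4me3 the larger difference was that between islands outside and at origins. Islands with CDT2 outside origins met H3K4me3 in 7.76% and those without CDT2 outside origins in 8.22%, a difference of -0.46 percentage points whose interval includes 0 (-1.45 to 0.60). At origins the share was 19.3% with CDT2 and 19.8% without. Islands with CDT2 outside origins were 11.5 percentage points below those at origins (-12.6 to -10.3) and lower on all 22 chromosomes. The difference was smaller with widths weighted, at -7.62, and with 1 kb around each centre, at -6.45. The comparison with islands without CDT2 depended on peak strength: in the stronger 50% of CUL4A islands H3K4me3 was 2.75 percentage points higher with CDT2, and with the stronger 50% of CDT2 peaks it was 1.67 higher. The latter threshold changed only the islands with CDT2.

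Where H3K4me3 did meet a CDT2 island outside origins, its peaks were weaker and narrower than those of the other sets. Their median fold enrichment over control, as listed by the authors' peak caller, was 4.70 (271 peaks, quartiles 3.84 to 7.63) and their median width 468 bp. In islands without CDT2 outside origins the median fold was 8.98 (1116 peaks) and the median width 2326 bp. CDT2 islands at origins lay between them, at 5.81 and 1195 bp, and H3K4me3 peaks away from any CUL4A island had a median fold of 6.78. CDT2 islands outside origins with H3K4me3 also met H3K9me3 in 54.3% (139 of 256), close to the 50.5% of those without H3K4me3. The share was 66.6% in H3K4me3 islands with CDT2 at origins (1429 of 2147). It was 15.0% in H3K4me3 islands without CDT2 outside origins (167 of 1113). H3K9me3 peaks in islands with CDT2 were stronger than in islands without, by a small amount in fold. Their median fold was 4.50 in CDT2 islands outside origins (1762 peaks, quartiles 3.76 to 5.55), 4.32 in CDT2 islands at origins, 4.17 in islands without CDT2 outside origins, 3.86 in islands without CDT2 at origins and 4.0 away from CUL4A. The median −log10 q was 3.48 and 3.71 in CDT2 islands outside and at origins, 2.66 and 2.67 in those without CDT2, and 2.33 away from CUL4A. By histone marks, 1538 of the 3300 islands had H3K9me3 alone (46.6%), 117 H3K4me3 alone (3.55%), 139 both (4.21%) and 1506 neither (45.6%). In the same order, CDT2 islands at origins had 49.1%, 6.44%, 12.8% and 31.65%. Islands without CDT2 outside origins had 19.9%, 6.98%, 1.23% and 71.9%.

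SKP2 peaks, although from another cell line, were more frequent in CDT2 islands. Outside origins, SKP2 of HCT116 WT cells was present in 12.4% of islands with CDT2 and 3.06% of islands without, a difference of 9.36 percentage points (8.24 to 10.6). For SKP2 of RepID KO cells the shares were 10.5% and 3.66%, a difference of 6.82 (5.77 to 7.96). Both differences had the same direction on all 22 chromosomes. In the stronger 50% of CUL4A islands they were 19.1 and 14.0, and with the stronger 50% of CDT2 peaks 16.8 and 11.3. The threshold on CDT2 changed only the islands with CDT2 and left the other set as it was. Either SKP2 list was met by 18.5% of CDT2 islands outside origins, 24.75% of CDT2 islands at origins and 6.31% of islands without CDT2 outside origins. Of the 610 CDT2 islands outside origins with either list, 146 had SKP2 in both genotypes, 264 in WT only and 200 in RepID KO only. Of the islands with SKP2 in WT, 35.6% also had SKP2 in RepID KO (31.1 to 40.4%), compared with 28.4% in CDT2 islands at origins and 13.5% in islands without CDT2 outside origins. The 2 genotypes were 1 sample each, so their shares are set side by side without a test.

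Against CDT2 islands at origins, the direction of the SKP2 difference changed with island width and with peak strength. The SKP2 WT share was 1.91 percentage points lower outside origins than at origins (14.3%; interval of the difference -3.17 to -0.57), but it was 1.25 higher once the islands at origins were weighted to the same widths (-0.03 to 2.59) and 2.42 higher with 1 kb around each centre. With widths as listed it was 7.42 higher in the stronger 50% of CUL4A islands and 2.55 higher with the stronger 50% of CDT2 peaks. For SKP2 of RepID KO the share was 4.01 percentage points lower (-5.21 to -2.74), and the weighted difference was -0.18 (-1.37 to 1.07); in the stronger 50% of CUL4A islands it was 2.84 higher. SKP2 peaks in the islands scored high within their own list. The median SKP2 WT score was 1137 in CDT2 islands outside origins (441 peaks, quartiles 539 to 2101), 747.5 in CDT2 islands at origins, 354 in islands without CDT2 outside origins and 333 away from CUL4A. For SKP2 of RepID KO the medians were 771.5, 620, 342 and 315 in the same order.

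**Figure D3:**
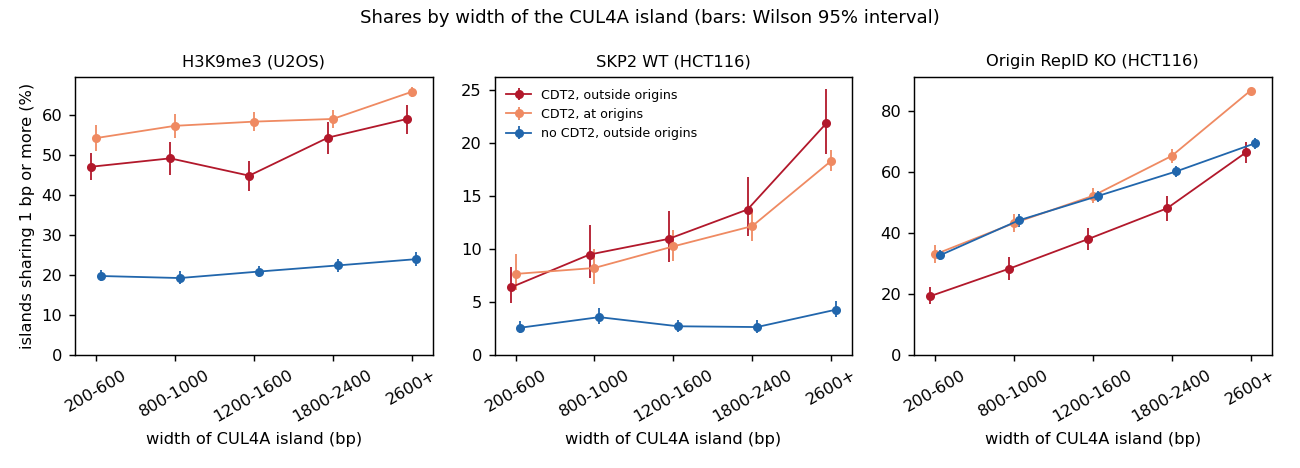
Share of islands (%) with H3K9me3, SKP2 of HCT116 WT and origins of HCT116 RepID KO in 5 classes of island width (bp), for 3 sets of islands; error bars are Wilson 95% intervals. In the middle panel the CDT2 islands outside origins rise from 6.35% in the narrowest class to 21.9% in the widest, beside 7.63% and 18.3% for CDT2 islands at origins.

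Width classes showed which shares moved with the size of an island. In CDT2 islands outside origins, H3K9me3 was present in 47.1% of islands of 200 to 600 bp and in 59.0% of islands of 2600 bp or more, and it was no lower than 44.8% in any class while islands without CDT2 outside origins stayed between 19.2% and 23.9%. The share with H3K9me3 was below that of CDT2 islands at origins in each of the 5 classes. SKP2 WT was present in 6.35% of the narrowest and 21.9% of the widest islands with CDT2 outside origins, and in 2.54% and 4.25% of the same classes without CDT2. Origins of RepID KO cells were met by 19.2% of the narrowest and 66.4% of the widest.

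Where another list met an island, it mostly met the CDT2 peak as well. Of the islands that met H3K9me3, 94.9% did so with a peak that shared a base with the strongest CDT2 peak (1592 of 1677). The same held for 92.2% of those with H3K4me3, 94.6% of those with SKP2 WT (388 of 410), 91.3% of those with SKP2 in RepID KO and 91.7% of those with a RepID KO origin. In CDT2 islands at origins the SKP2 values were lower, at 80.0% for WT and 75.4% for RepID KO, in islands that were also wider. Since CDT2 covered a median of 42.3% of each island and the RepID KO origin regions there had a median width of 2400 bp, a shared base is not evidence of centring on CDT2, and no other position within the islands was compared. Averaged over CDT2 islands outside origins, H3K9me3 covered 40.7% of bases at the CDT2 centre and 1.38% of bases in the outermost 1 kb of a window reaching 5 kb to each side. SKP2 WT fell from 9.71% to 0.22% over the same distance, and SKP2 of RepID KO from 7.32% to 0.27%. RepID KO origins covered 34.6% at the centre and 17.3% at the outer edge. The outer part of this window lies beyond most of the islands, so these values compare the CDT2 site with its surroundings and not with the rest of the island.

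**Figure D4:**
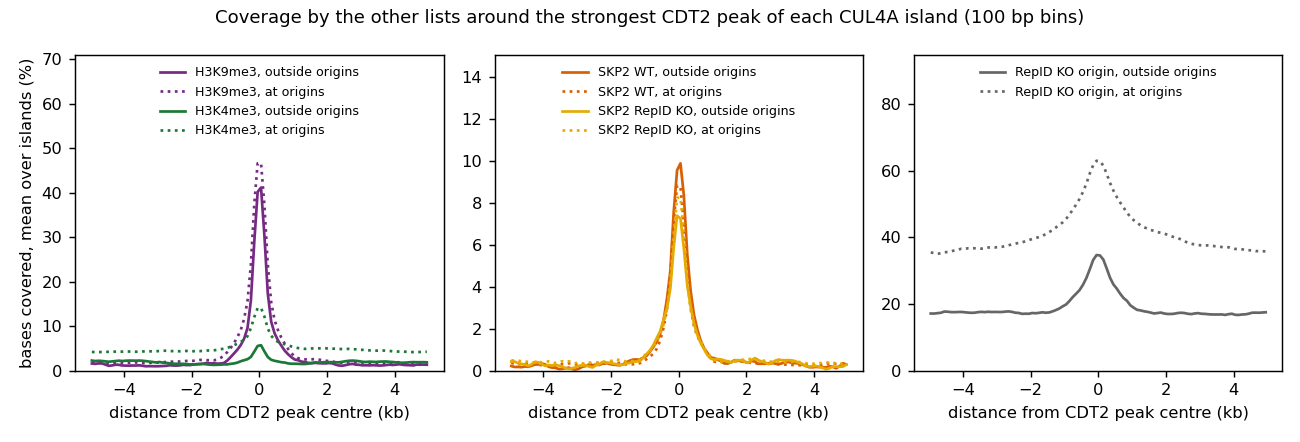
Mean share of bases covered (%) by each list, in 100 bp bins against distance in kb from the centre of the strongest CDT2 peak, for CDT2 islands outside origins (solid) and at origins (dotted). All lists are highest at the CDT2 centre; for islands outside origins H3K9me3 stands at 40.7% there, SKP2 WT at 9.71% and SKP2 of RepID KO at 7.32%.

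Among the islands themselves, H3K9me3 and SKP2 were more frequent where the CDT2 score was higher. The islands were divided into 4 equal groups of 825 by the score of their strongest CDT2 peak, with upper limits of 23.7, 28.46, 40.8 and 1848. H3K9me3 was present in 38.9%, 47.6%, 54.8% and 61.9% of these groups from the weakest to the strongest, a difference of 23.0 percentage points between the ends (18.3 to 27.6). SKP2 WT was present in 3.27%, 4.36%, 8.0% and 34.1%, a difference of 30.8 (27.3 to 34.2). SKP2 of RepID KO followed the same course, with 4.61%, 5.82%, 6.55% and 25.0%. The H3K9me3 share thus increased by similar steps from group to group, and that of SKP2 mainly in the strongest group. The groups are equal in number and not in range of score, since the strongest reaches from 40.8 to 1848. The shape of either rise along the score itself is therefore not shown. The strength of the H3K9me3 peaks did not rise in the same way. Their median fold was 4.425, 4.516, 4.611 and 4.357 from the weakest to the strongest group. H3K4me3 was present in 5.46%, 5.21%, 7.15% and 13.2%, and RepID KO origins in 36.4%, 35.2%, 33.5% and 53.7%. The median width was 1200 bp in each of the 3 weaker groups and 1800 bp in the strongest, and the median CUL4A score was 41, 41, 47 and 88. The part of CUL4A strength in these gradients was not tested. In each of the 5 width classes, islands with a CDT2 score above the class median had more H3K9me3 and more SKP2 WT than those below it, for example 52.4% and 41.8% for H3K9me3 in islands of 200 to 600 bp, and 9.48% and 3.23% for SKP2 WT.

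**Figure D5:**
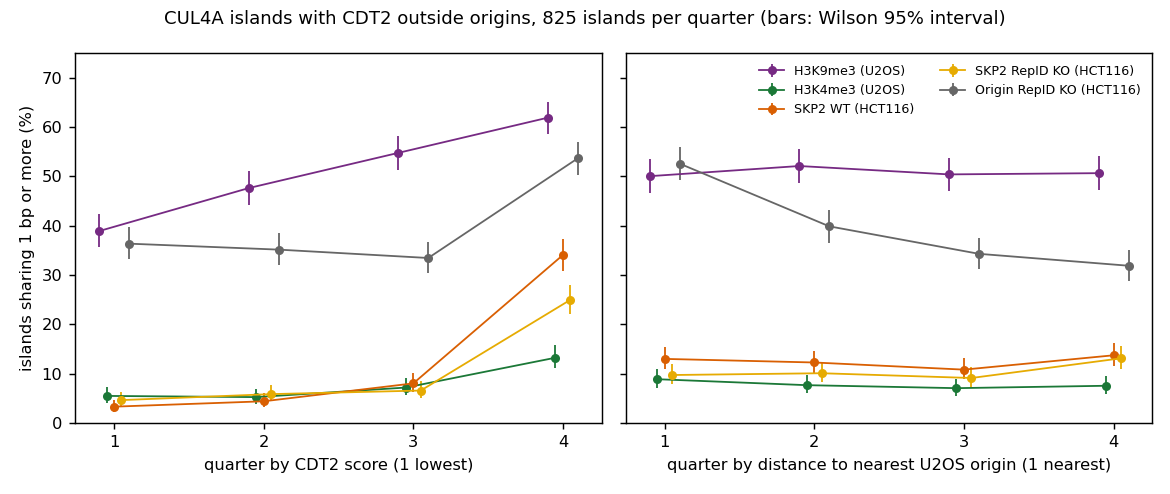
Share of CDT2 islands outside origins (%) that meet each list, in 4 groups of 825 by CDT2 score (left) and by distance to the nearest U2OS origin (right); error bars are Wilson 95% intervals. On the left H3K9me3 goes from 38.9% to 61.9% and SKP2 WT from 3.27% to 34.1%; on the right H3K9me3 stays between 50.1% and 52.1% while RepID KO origins go from 52.6% to 31.9%.

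SKP2 was more frequent in islands with H3K9me3 than in those without. Over all 3300 islands, SKP2 WT was present in 15.2% of those with H3K9me3 and 9.55% of those without, a difference of 5.66 percentage points (3.42 to 7.90). In the strongest CDT2 group the values were 38.0% with H3K9me3 (33.9 to 42.2%) and 27.7% without (23.0 to 32.9%). In the 3 weaker groups they were 2.80% and 3.57%, 4.33% and 4.40%, and 7.74% and 8.31%. There the share was slightly lower with H3K9me3, with intervals that overlapped. The median CDT2 score was 30.68 in islands with H3K9me3 and 26.11 in those without. SKP2 of RepID KO was present in 14.0% of islands with H3K9me3 and 6.90% of those without, and it was higher with H3K9me3 in each CDT2 group, at 5.61% and 3.97%, 7.89% and 3.94%, 7.30% and 5.63%, and 29.7% and 17.2% from the weakest to the strongest. In the 3 weaker groups the intervals of RepID KO overlapped as well. Whether the difference by H3K9me3 varied between CDT2 groups was not tested for either genotype. SKP2 WT also went with RepID KO origins: 20.3% of islands with such an origin had SKP2 WT, against 7.23% of those without. Islands with such an origin were also wider, with medians of 2000 and 1000 bp. Within each of the 5 width classes the SKP2 WT share was still higher with an origin. It was 8.44% and 5.855% in the narrowest class, where the intervals overlapped, and 28.7% and 8.40% in the widest. From the weakest to the strongest CDT2 group, the SKP2 WT shares were 5.0% and 2.29%, 4.83% and 4.11%, 12.7% and 5.65%, and 45.6% and 20.7%. The intervals overlapped in the 2 weakest groups. For SKP2 of RepID KO the shares were 4.67% and 4.57%, 6.55% and 5.42%, 7.61% and 6.01%, and 33.2% and 15.45%. H3K9me3 did not follow RepID KO origins in this way, at 48.4% of islands with such an origin and 52.4% of those without, and the share was lower with an origin in each of the 4 CDT2 groups.

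Distance from an origin moved the shares of H3K9me3, H3K4me3 and SKP2 by less than 5 percentage points, and that of RepID KO origins by more. In 4 equal groups by distance to the nearest U2OS origin, with medians of 1200, 4000, 9200 and 29200 bp, H3K9me3 was present in 50.1%, 52.1%, 50.4% and 50.7%. SKP2 WT was present in 13.0%, 12.2%, 10.8% and 13.7%, SKP2 of RepID KO in 9.70%, 10.1%, 9.09% and 13.1%, and H3K4me3 in 8.85%, 7.64%, 7.03% and 7.52%. RepID KO origins of HCT116 were met by 52.6%, 39.9%, 34.3% and 31.9%, and median island width went down from 1600 to 1000 bp over the same groups. Islands with CDT2 outside U2OS origins met RepID KO origins less often than islands without CDT2 outside U2OS origins, by 11.4 percentage points (-13.2 to -9.51), and this direction held on all 22 chromosomes. They were 30.1 percentage points below CDT2 islands at U2OS origins, of which 69.8% met a RepID KO origin (interval of the difference -32.0 to -28.2). That difference was -15.8 with widths weighted and -18.9 in the stronger 50% of CUL4A islands. Both sets without a U2OS origin were chosen by the absence of nascent strands in U2OS, so a lower share than at U2OS origins also carries that choice.

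All 5 other lists were met by 19 of the 3300 islands (0.58%), and none of them by 821 (24.9%). Islands with all 5 made up 0.86% of CDT2 islands at origins, 0.02% of islands without CDT2 outside origins and 0.12% of islands without CDT2 at origins. Islands with none of the 5 made up 9.24% of CDT2 islands at origins, 33.5% of islands without CDT2 outside origins and 13.25% of islands without CDT2 at origins. The 170 islands with 2 or more CDT2 peaks had SKP2 of RepID KO in 27.1% and SKP2 WT in 23.5%, compared with 9.59% and 11.8% in the 3130 islands with a single CDT2 peak. The 170 islands were also wider, with a median of 2800 bp against 1200 bp. Their median CDT2 score was 45.41 against 27.87, and their median CUL4A score 99 against 47. The part of width and of peak strength in this difference was not tested.

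The 4 islands with the highest CUL4A or CDT2 scores lay beside the largest stretch of their chromosome without a region in any list, which on chromosomes 1, 4 and 17 holds the centromere. The highest CUL4A score was 8708, on chromosome 4 from 49093201 to 49159800, a 66600 bp island with 21 CDT2 peaks (highest CDT2 score 1848.36), 30.4 kb from the nearest origin. It met 6 H3K9me3, 12 SKP2 WT and 11 SKP2 RepID KO peaks. The next was on chromosome 4 from 49633401 to 49660200, with a CUL4A score of 4175 and a CDT2 score of 1698.87. The third, on chromosome 1 from 142535401 to 142543200, had a CUL4A score of 3787 and a CDT2 score of 513.52, and lay 113.4 kb from an origin. The third highest CDT2 score, 1606.19, was on chromosome 17 from 25263001 to 25268200. These 4 islands met H3K9me3, SKP2 of both genotypes and a RepID KO origin, and no H3K4me3. Their strongest H3K9me3 peaks had folds of 2.53, 2.39, 1.80 and 2.45, all below the lower quartile of 3.76 over the islands.

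In all, 157 islands (4.76%) were within 2 Mb of such a stretch, against 3.44% of CDT2 islands at origins and 2.60% of islands without CDT2 outside origins. They had SKP2 WT in 23.6%, SKP2 of RepID KO in 26.8% and H3K9me3 in 45.2%. The other 3143 islands had 11.9%, 9.67% and 51.1%. With islands within 2 Mb left out of each set, the difference from islands without CDT2 outside origins was 29.9 percentage points for H3K9me3 (28.0 to 31.8) and 8.83 for SKP2 WT (7.70 to 10.0), and that between the ends of the CDT2 score range was 29.1 for SKP2 WT.

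The islands with H3K4me3 and the highest CDT2 scores met most lists at once. The highest of these scores, 1181.46, was on chromosome 17 from 75479201 to 75481800 and met all 5 other lists, with an H3K9me3 fold of 4.95, an H3K4me3 fold of 2.53 and an origin 0.8 kb away. The next with H3K4me3 were on chromosome 20 from 25047601 to 25049000 (CDT2 score 766.09, 1.27 Mb from the largest stretch without regions) and on chromosome 2 from 7906601 to 7909600 (CDT2 score 749.05). All 3 had H3K9me3 and SKP2 WT as well, and H3K9me3 folds (4.95, 5.38 and 4.75) above their H3K4me3 folds (2.53, 2.19 and 2.53). Chosen after the values were seen, the islands with the next highest CDT2 scores more than 2 Mb from a largest stretch were on chromosome 7 from 39299201 to 39301000 (1134.97), on chromosome 9 from 91867001 to 91870200 (983.93) and on chromosome 3 from 129087601 to 129090400 (840.65). Each of them had H3K9me3 and SKP2 WT and lay within 2.2 kb of an origin.

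The 3 islands farthest from an origin had CDT2 scores below the median of 28.46. They do not stand for the farthest of the 4 distance groups, whose median CDT2 score was 29.47, beside 28.02 in the nearest. The farthest was on chromosome 19 from 22751201 to 22756000, 860.6 kb from an origin, with a CDT2 score of 23.44 and an H3K9me3 fold of 4.53. It lay 1.85 Mb from the largest stretch without regions. On chromosome 14 from 41191801 to 41192800, 793.2 kb away, the CDT2 score was 26.53 and the H3K9me3 fold 6.32. On chromosome 7 from 118661001 to 118661800, 621.4 kb away, the CDT2 score was 23.0 and no other list was met. None of the 3 met SKP2 or a RepID KO origin. In the farthest distance group as a whole, SKP2 WT was present in 13.7% and SKP2 of RepID KO in 13.1%, beside 12.4% and 10.5% over all 3300 islands.

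The islands were spread over all 22 chromosomes, from 53 on chromosome 13 to 284 on chromosome 2 (median 147), and their density went from 0.46 per Mb on chromosome 13 to 2.59 per Mb on chromosome 19. They made up 14.8% of the CUL4A islands with CDT2 on chromosome 17 and 43.1% on chromosome 21. The nearest other island of the set was a median of 182300 bp away, and 206 had another within 10 kb. Of 1620 windows of 1 Mb that held at least 1 of them, 102 held 5 or more, with 589 islands. The most, 10, were in the windows from 38000001 to 39000000 on chromosome 10 and from 10000001 to 11000000 on chromosome 21, both within 1 Mb of the largest stretch without regions. The former had 1 island with H3K9me3 and the latter 4. Windows with 9 islands differed among themselves. From 44000001 to 45000000 on chromosome 10, 1.65 Mb from the largest stretch without regions, 8 of the 9 islands had H3K9me3 and none had SKP2 WT. From 33000001 to 34000000 on chromosome 16, 1.32 Mb from the largest stretch without regions, 4 had H3K9me3 and 5 had SKP2 WT. From 57000001 to 58000000 on chromosome 19, 29.44 Mb from that stretch, 3 had H3K9me3 and 1 had SKP2 WT. The median CDT2 score in these windows was 29.86 on chromosome 10, 194.8 on chromosome 16 and 32.26 on chromosome 19.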

How the data were processed

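Peak lists of 8 samples were used as deposited, in hg19 according to the submitters' processing notes, which name MACS and SICER. The CUL4A and nascent strand lists hold a score per island made by the authors with SICER (window 200 bp, gap 600 bp, false discovery rate 0.00001 for CUL4A and 0.01 for origins). The authors' CDT2 and SKP2 lists hold a score whose scale is not given in the sources used here. For both histone marks the authors deposited peaks laid out as by MACS in broad mode, with a score, a fold enrichment (ratio over control) and −log10 p and q, although the study's methods name SICER.

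On chromosomes 1 to 22, islands sharing 1 bp or more with another list were counted with Python 3.11.15, NumPy 2.4.6 and pandas 2.3.3, with figures by matplotlib 3.10.9. Each list is 1 sample. Shares have Wilson 95% intervals and differences Newcombe 95% intervals, and the code was tested on simulated data. Alternatives changed the overlap (200 bp, or a gap of 1 kb), the origin margin (5 kb), list thresholds, island width (1 kb around each centre, or weights over 5 width classes) and the chromosomes used. 2 more were chosen after seeing the data: leaving out islands within 2 Mb of the largest stretch without regions, and a window of 250 bp on each side of the CDT2 centre. Named islands are the 3 highest by CUL4A score, by CDT2 score (over all, with H3K9me3 and both SKP2 lists, and with H3K4me3) and by distance to an origin, and 2 at each edge of the rule. The islands, lists and comparisons were chosen with earlier results of these data known. Sequences and genes were not used here, since no hg19 genome or annotation was given.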

Additional observations from a re-analysis of the deposited data

Results flagged for a closer look

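Chromosome X was outside the rule and entered no comparison. Of its 931 CUL4A islands, 112 met CDT2 and no U2OS origin, which drew attention as a signal in data not used above, with no control samples to set it against. H3K9me3 was present in 43.75% of them (49 islands, Wilson 95% interval 34.9 to 53.0%), beside 50.8% on chromosomes 1 to 22, and SKP2 WT in 13.4% (8.29 to 20.9%), beside 12.4%. Origins of HCT116 RepID KO cells were met by 21.4% (14.8 to 29.9%), beside 39.7%. The other CUL4A islands of chromosome X were not compared. A trait of the 112 islands therefore cannot be told apart from one of chromosome X as a whole. The intervals cover counting error only.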

How the results depend on the processing

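For 13 differences, 124 alternative values were computed: 111 kept their direction and their side of 0, 2 kept the direction with an interval that came to include 0, 1 moved its interval off 0 and 10 changed sign. Against islands without CDT2 outside origins, H3K9me3 stayed between 25.6 and 36.5 percentage points higher, SKP2 WT between 7.21 and 19.1 and SKP2 of RepID KO between 5.69 and 14.0. H3K4me3 against the same islands was -0.999 with 1 kb around each centre (interval off 0), 2.75 in the stronger 50% of CUL4A islands and 1.67 with the stronger 50% of CDT2 peaks. In comparisons with islands without CDT2, the threshold on CDT2 changed only the islands with CDT2. Against CDT2 islands at origins, H3K9me3 became 2.52 with 1 kb around each centre. SKP2 WT became 2.42 with 1 kb around each centre, 1.25 with widths weighted, 7.42 in the stronger 50% of CUL4A islands, 2.55 with the stronger 50% of CDT2 peaks, 0.256 within 250 bp of the CDT2 centre and -1.06 with the stronger 50% of SKP2 peaks (interval including 0). SKP2 of RepID KO became 0.617 with 1 kb around each centre, -0.182 with widths weighted (interval including 0) and 2.84 in the stronger 50% of CUL4A islands. Apart from the width of the windows, which the alternatives set themselves, the cause was not tested. The 3 differences among the islands by CDT2 score or H3K9me3 kept their direction. None of those alternatives compared islands with and without H3K9me3 at like CDT2 scores. In the 3 weaker CDT2 groups, SKP2 WT was slightly lower with H3K9me3. Islands are not replicates, and unknown depth limits what the absence of a peak says. No paired analysis was possible because each condition had 1 sample.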
